A study of Homo sapiens with 6 samples.

Results

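The condensin complexes, the topoisomerase TOP2A and the proliferation antigen Ki-67 shape chromosomes for mitosis, and their transcripts were followed in HCT116 cells after knockdown of NONO, an RNA- and DNA-binding protein of nuclear paraspeckles. The 10 genes were chosen by symbol, with earlier results of these data known. They were the shared condensin subunits SMC2 and SMC4, the condensin I subunits NCAPD2, NCAPG and NCAPH, the condensin II subunits NCAPD3, NCAPG2 and NCAPH2, and TOP2A and MKI67, the gene of Ki-67. All 10 were found among the 62492 genes listed, and all 10 had enough counts to be tested, as did 17000 genes in total. Transcript levels of 8 of the 10 fell in siNONO cells, to between 48.0% and 67.2% of siControl, and none rose. Over all genes tested, 23.4% were lower and 23.2% higher. The condensin II subunits NCAPG2 and NCAPH2 were the other two, at 95.9% and 91.2% of siControl.

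HCT116 is a human colorectal carcinoma line. Both groups were transfected with siRNA at 20 nM: siControl with a control duplex, labelled as genotype WT, and siNONO with a duplex against NONO, labelled as NONO knockdown. Each group had 3 libraries of polyadenylated RNA, labelled Set 1, Set 2 and Set 3, so each Set held 1 library of each group. A single siNONO duplex is given in the methods, the harvest time of these cells is not given in the sources used here, and the question asked was what NONO depletion does to the transcriptome.

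Condensins are ring-shaped complexes that extrude loops of DNA and compact chromosomes. SMC2 and SMC4 form the ATPase arms of both complexes, a kleisin subunit (NCAPH in condensin I, NCAPH2 in condensin II) closes the ring, and a pair of HEAT-repeat subunits (NCAPD2 and NCAPG, or NCAPD3 and NCAPG2) binds DNA and regulates the motor. Condensin II resides in the nucleus throughout the cell cycle, while condensin I reaches the chromosomes after the nuclear envelope breaks down. TOP2A passes DNA strands through each other to untangle sister chromatids, and Ki-67 coats mitotic chromosomes and keeps them apart. Many mitotic genes are timed to G2 and M phase through promoter elements. Among these elements are the CCAAT box, which NF-Y binds, and the cell cycle genes homology region (CHR), which the DREAM and MYB-MuvB complexes bind.

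The promoters are shown here because these elements are known from mitotic genes. Of the 6 printed, 5 belong to genes that fell and 1 to NCAPG2, which was not called. SMC2, SMC4 and NCAPH, which also fell, are not printed. The RefSeq table on GRCh38.p14 held 12 windows for 9 of the 10 genes, each of 300 bases, 250 before and 50 after an annotated start. NCAPH2 had no entry. Searched on both strands were CCAAT, the CHR words TTTGAA and TTCGAA, and the E2F words TTTCCCGC, TTTCGCGC, TTTGCCGC and TTTGGCGC. The 200 bases before the start are printed 5′ to 3′ on the gene's strand, with CCAAT and CHR words of either strand in capitals, so that a CCAAT box on the other strand reads ATTGG. Those of NCAPD2, TOP2A and MKI67 hold both elements in full, NCAPD3 holds CCAAT boxes and the first bases of a CHR word, NCAPG holds the CHR word alone, and NCAPG2 holds neither in these bases. The windows lie at chr17:40417897-40418096 (minus strand, TOP2A), chr10:128126424-128126623 (minus strand, MKI67), chr12:6493902-6494101 (plus strand, NCAPD2), chr11:134223968-134224167 (minus strand, NCAPD3), chr4:17810779-17810978 (plus strand, NCAPG) and chr7:158704805-158705004 (minus strand, NCAPG2).
TOP2A: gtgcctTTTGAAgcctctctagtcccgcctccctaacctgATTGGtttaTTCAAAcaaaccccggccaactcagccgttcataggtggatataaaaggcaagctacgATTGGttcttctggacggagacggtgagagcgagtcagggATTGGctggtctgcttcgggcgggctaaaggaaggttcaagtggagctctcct
MKI67: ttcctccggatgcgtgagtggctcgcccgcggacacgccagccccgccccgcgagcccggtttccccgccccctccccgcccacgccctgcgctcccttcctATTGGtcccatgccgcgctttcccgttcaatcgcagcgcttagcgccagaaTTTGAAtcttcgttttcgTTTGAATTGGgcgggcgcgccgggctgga
NCAPD2: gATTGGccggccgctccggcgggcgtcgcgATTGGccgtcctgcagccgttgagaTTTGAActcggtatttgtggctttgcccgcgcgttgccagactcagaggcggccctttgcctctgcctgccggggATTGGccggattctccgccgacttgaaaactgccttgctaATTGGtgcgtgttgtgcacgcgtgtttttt
NCAPD3: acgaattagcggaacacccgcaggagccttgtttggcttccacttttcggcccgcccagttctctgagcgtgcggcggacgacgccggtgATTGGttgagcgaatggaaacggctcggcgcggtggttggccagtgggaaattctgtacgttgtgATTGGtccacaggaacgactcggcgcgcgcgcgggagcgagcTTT
NCAPG: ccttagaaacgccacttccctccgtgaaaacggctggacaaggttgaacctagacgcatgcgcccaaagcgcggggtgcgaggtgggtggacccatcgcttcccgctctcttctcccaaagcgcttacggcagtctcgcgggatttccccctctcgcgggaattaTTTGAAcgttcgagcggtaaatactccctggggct
NCAPG2: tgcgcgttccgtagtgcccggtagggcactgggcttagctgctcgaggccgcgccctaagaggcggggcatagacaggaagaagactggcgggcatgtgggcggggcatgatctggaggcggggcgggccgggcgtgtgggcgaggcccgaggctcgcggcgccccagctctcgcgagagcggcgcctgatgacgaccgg

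A CHR word stood in 8 of the 12 windows, from 8 of the 9 genes, against 16.4% of all 35116 windows of this length in the table. CCAAT was found in 5 of the 12 windows, from 5 genes, against 34.6% of all windows. Both were found in 4 of the 12 windows, from 4 genes, against 6.4% of all windows. Genes with a second window have more chances to hold a word, so these shares are descriptions. NCAPH, which fell, held no CHR word. No CCAAT was found in SMC2, SMC4 and NCAPG, which fell, or in NCAPG2, which was not called. TOP2A held 4 CCAAT boxes, at positions -244, -160, -93 and -53 from the start, the first of them outside the printed bases. The CHR words of MKI67 began at -47 and -29, and the second overlaps a CCAAT box on the other strand. In NCAPD3 the CHR word began at -3 and runs past the start, so TTT alone is printed. The word of NCAPG2 lay 36 bases after the start. One E2F word was found, in NCAPD3. Start positions of all words are drawn in the map of motif words.

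Levels within a gene are given as CPM, the estimated counts scaled to library size with TMM factors. Tests are those of edgeR's quasi-likelihood method, blocked by Set, with p-values adjusted after Benjamini and Hochberg across every tested gene, and a gene was called lower or higher where its adjusted p did not exceed 0.05. NONO itself stood at 496, 495 and 516 CPM in the siControl libraries of Sets 1, 2 and 3 and at 89.5, 95.5 and 100.4 CPM in siNONO. The knockdown thus left 18.9% of the siControl level (log2 fold change -2.40, standard error 0.0337). Library totals ran from 21765393 to 32659002 counts, with siControl Set 3 the lowest. Of 8 epithelial markers, 6 reached 1 TPM in both groups, with summed levels of 2880 to 3014 TPM in siControl and 2720 to 3010 TPM in siNONO. CDX1 was at 0 in all libraries, and VIL1 was at 0.17 TPM or less in each. Of 9 markers of blood, endothelium, fibroblast and muscle, 8 were listed and 3 reached 1 TPM (CD68, COL1A1 and ACTA2), with summed levels of 25.0 to 31.0 TPM in siControl and 34.7 to 37.7 TPM in siNONO. Of the tested genes of this list 2 of 4 were called higher, CD68 at a log2 fold change of 1.40 (standard error 0.165) and ACTA2 at 1.30 (standard error 0.114), while COL1A1 was at 0.02. EPCAM and KRT19 were the 2 of 6 tested epithelial markers called higher, at 0.32 and 0.14. The part of these markers in the results was not tested. In bulk RNA, fewer cells in a phase of the cell cycle and less RNA per cell cannot be told apart.

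By this test 3985 of the 17000 genes, or 23.4%, were lower and 3939, or 23.2%, were higher in siNONO, with a median log2 fold change of -0.0048 over all genes. Among the 10 genes 8 were lower and 0 higher, with a median of -0.64. In those 8 every siNONO library lay below every siControl library, which held for 24.0% of all genes tested. The number lower was 8 or 9 under all 15 alternatives tried.

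The shared SMC subunits fell together. SMC2 stood at 49.1, 53.4 and 46.9 CPM in siControl and at 32.2, 34.9 and 33.4 CPM in siNONO. The groups did not overlap, and the log2 fold change was -0.57 (standard error 0.0476, 95% confidence interval -0.68 to -0.47, adjusted p = 8.66e-07 by edgeR with Benjamini-Hochberg adjustment). SMC4, its partner arm, stood at 219, 221 and 191 CPM in siControl and at 128, 139 and 117 CPM in siNONO. Set 3 was the lowest in both groups, and the groups again lay apart. SMC4 changed by -0.72 on the log2 scale (standard error 0.0327, 95% confidence interval -0.79 to -0.65, adjusted p = 4.33e-09 by edgeR with Benjamini-Hochberg adjustment). Within Sets 1, 2 and 3 the differences were -0.61, -0.61 and -0.49 for SMC2 and -0.77, -0.67 and -0.71 for SMC4. On the opposite strand, 22.0% of the exonic bases of SMC4 are shared with other genes, mainly TRIM59. The library kit keeps strand, but the strand setting of the counting is not given in the sources used here.

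All 3 condensin I subunits fell. The kleisin NCAPH stood at 55.3, 60.5 and 59.4 CPM in siControl and at 36.1, 39.4 and 39.8 CPM in siNONO, with no overlap. This was a log2 fold change of -0.60 (standard error 0.0427, 95% confidence interval -0.70 to -0.51, adjusted p = 1.99e-07 by edgeR with Benjamini-Hochberg adjustment). NCAPD2, a HEAT-repeat subunit, stood at 280.1, 304 and 309.7 CPM in siControl against 178, 194 and 200.1 CPM in siNONO. Set 1 was the lowest in both groups, and NCAPD2 fell in each Set by nearly the same amount, with differences of -0.65, -0.65 and -0.63. Over the Sets the change was -0.64 (standard error 0.0292, 95% confidence interval -0.71 to -0.58, adjusted p = 4.23e-09 by edgeR with Benjamini-Hochberg adjustment). NCAPG, the other HEAT-repeat subunit, stood at 133, 149.9 and 133 CPM in siControl and at 74.0, 74.5 and 76.5 CPM in siNONO. The siNONO libraries lay close to each other and far below siControl, at 54.2% of it. For NCAPG the log2 fold change was -0.88 (standard error 0.0421, 95% confidence interval -0.98 to -0.79, adjusted p = 6.69e-09 by edgeR with Benjamini-Hochberg adjustment). A share of 33.7% of its exonic bases overlaps LCORL on the opposite strand, and 5.9% of those of NCAPD2 overlap MRPL51, while NCAPH shares no exonic bases with another gene.

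Of the condensin II subunits 1 of 3 fell. NCAPD3, the HEAT-repeat counterpart of NCAPD2, stood at 127, 139.7 and 135 CPM in siControl and at 80.2, 87.9 and 87.1 CPM in siNONO, with no overlap. Its change was -0.66 (standard error 0.0331, 95% confidence interval -0.73 to -0.58, adjusted p = 1.13e-08 by edgeR with Benjamini-Hochberg adjustment). Opposite-strand genes share 11.9% of its exonic bases, mostly JAM3, which had at most 6.58 counts in any library. NCAPG2, the counterpart of NCAPG, stood at 76.5, 81.3 and 69.7 CPM in siControl and at 70.6, 77.1 and 70.5 CPM in siNONO. The groups overlapped, since siControl Set 3 lay below all siNONO libraries. The log2 difference of NCAPG2 was -0.06 (standard error 0.0392, 95% confidence interval -0.15 to 0.03, adjusted p = 0.235 by edgeR with Benjamini-Hochberg adjustment), and the adjusted p ran from 0.0577 to 0.752 over its alternatives.

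NCAPH2, the condensin II kleisin, depended on Set 3. It stood at 53.3, 60.6 and 59.1 CPM in siControl and at 44.5, 51.4 and 63.3 CPM in siNONO. The siNONO library of Set 3 was the highest of all 6, whereas in Sets 1 and 2 siNONO lay below siControl, with differences of -0.26, -0.24 and 0.10 in Sets 1, 2 and 3. Over all libraries the difference was -0.13 (standard error 0.0620, 95% confidence interval -0.27 to 0.0016, adjusted p = 0.0990 by edgeR with Benjamini-Hochberg adjustment). Without siNONO Set 3 it was -0.25 (adjusted p = 0.000459) and without siControl Set 3 it was also -0.25 (adjusted p = 0.000868, both by edgeR with Benjamini-Hochberg adjustment). In these fits 2 of the 3 condensin II subunits were lower. With Set as a block, the remaining Set 3 library adds nothing to the group difference. Both fits thus compare Sets 1 and 2 alone. SCO2, which shares 19.2% of the exonic bases of NCAPH2 on the opposite strand, was also highest in siNONO Set 3, at 13.7 CPM against 8.95 to 10.8 CPM in the other libraries. Its part in the NCAPH2 value was not tested. A same-strand lncRNA over the same share of NCAPH2 had 0 counts in every library.

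**Figure D1:**
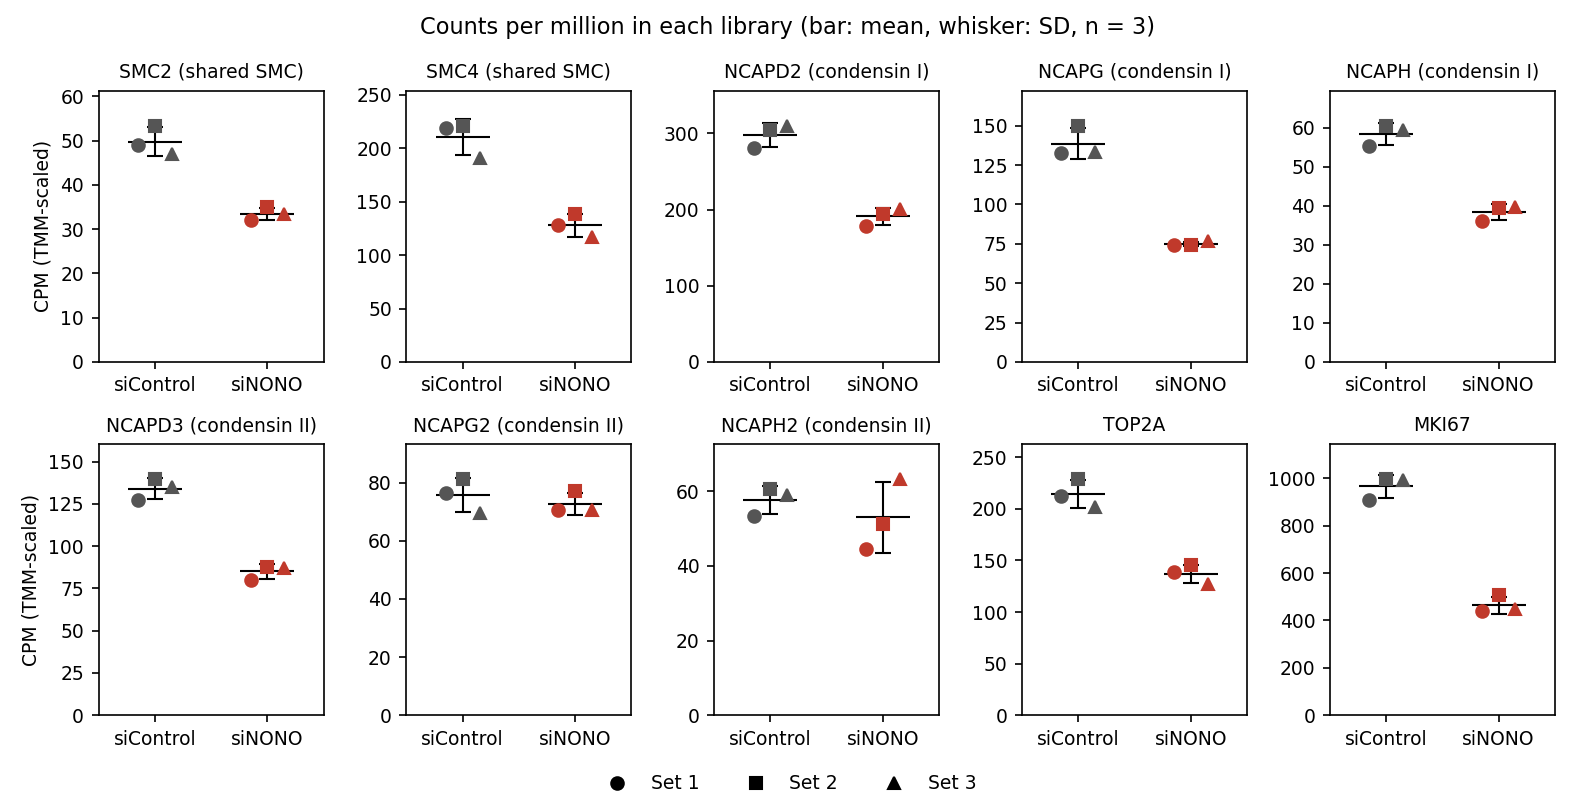
CPM of each of the 10 genes in each library, grey for siControl and red for siNONO, with circles, squares and triangles for Sets 1, 2 and 3; bars are means and whiskers the SD of 3 libraries, and each vertical axis starts at 0. Red lies below grey without overlap in 8 panels, and NCAPG2 and NCAPH2 overlap, with the siNONO Set 3 library of NCAPH2 at 63.3 CPM.

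Condensin I was set against condensin II by the ratio of each matched pair of subunits within a library, in TPM, a level per transcript length. The log2 ratio of NCAPG to NCAPG2 was 0.844, 0.926 and 1.01 in siControl and 0.0680, -0.0117 and 0.238 in siNONO. All siNONO ratios lay below all siControl ratios, and the mean fell from 0.926 ± 0.0820 to 0.0982 ± 0.128 (SD, n = 3 each), a difference of -0.83. Within Sets 1, 2 and 3 the difference was -0.78, -0.94 and -0.77, with an SD of 0.0953 over the Sets. The log2 ratio of the kleisins, NCAPH to NCAPH2, was 0.127, 0.0616 and 0.0684 in siControl and -0.0846, -0.246 and -0.544 in siNONO. It was positive in every siControl library and negative in every siNONO library, with means of 0.0857 ± 0.0360 and -0.292 ± 0.233 (SD, n = 3 each) and a difference of -0.38. By Set it was -0.21, -0.31 and -0.61, and without siNONO Set 3 the difference of the means was -0.25. In CPM, where transcript length does not enter, the kleisin ratio of siControl Set 2 was -0.0035 and the difference of the means was -0.47. For each of these ratios the two-sided exact permutation test over unpaired libraries gave p = 0.10, the smallest that 3 against 3 allow, and 0.15 after Benjamini-Hochberg adjustment over 3 ratios, so this test could not have passed 0.05 whatever the values.

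The third pair behaved otherwise. NCAPD2 to NCAPD3 stood at 1.31, 1.30 and 1.58 in siControl and at 1.39, 1.35 and 1.25 in siNONO on the log2 TPM scale. The ranges overlapped, siNONO was higher in Sets 1 and 2 and lower in Set 3, and the means of 1.40 ± 0.157 and 1.33 ± 0.0715 (SD, n = 3 each) differed by -0.06 (two-sided exact permutation p = 0.70). On CPM, which leaves out transcript length, the difference was 0.013. Summed over subunits, condensin I held 199.9, 211 and 221 TPM in siControl and 118, 121 and 125 TPM in siNONO, and condensin II held 109.9, 117 and 111 TPM against 80.0, 85.6 and 94.7 TPM. The ratio of the sums thus moved from 1.82, 1.81 and 2.00 to 1.47, 1.41 and 1.32, with no overlap. These sums weigh the most abundant subunit, NCAPD2, most. Over all genes tested, TPM also ran lower in siNONO. The median log2 fold change was -0.071 by limma on log2(TPM + 1), against -0.0048 by edgeR on counts.

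**Figure D2:**
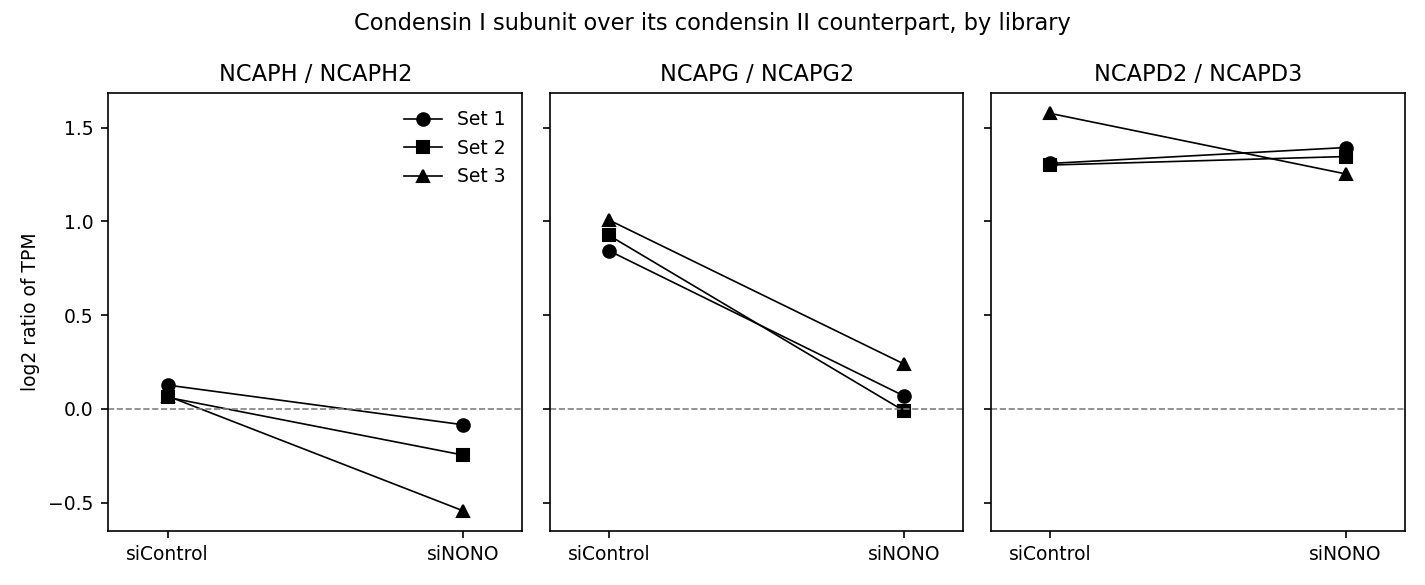
Log2 ratio in TPM of each condensin I subunit to its condensin II counterpart, with a line joining the siControl and siNONO library of each Set. NCAPH to NCAPH2 and NCAPG to NCAPG2 fall in all 3 Sets, with mean differences of -0.38 and -0.83, and NCAPD2 to NCAPD3 falls in Set 3 alone.

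TOP2A stood at 212, 229 and 202 CPM in siControl and at 138, 145 and 127 CPM in siNONO. Set 2 was the highest and Set 3 the lowest in each group, and the groups lay apart. TOP2A fell to 63.9% of siControl, a log2 fold change of -0.65 (standard error 0.0309, 95% confidence interval -0.71 to -0.58, adjusted p = 6.78e-09 by edgeR with Benjamini-Hochberg adjustment), with -0.62, -0.66 and -0.67 in Sets 1, 2 and 3. TOP2B, the isoform that non-dividing cells also use, had a log2 fold change of -0.13, and the ratio of TOP2A to TOP2B in TPM went from 0.991, 1.05 and 1.02 in siControl to 0.684, 0.690 and 0.698 in siNONO.

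MKI67 had the lowest fold change of the 10 genes and ranked 212 from the lowest among all 17000. It stood at 909.9, 996 and 994 CPM in siControl and at 440.1, 506 and 448 CPM in siNONO. All siNONO libraries lay far below siControl, and the log2 fold change was -1.06 (standard error 0.0336, 95% confidence interval -1.13 to -0.98, adjusted p = 1.86e-10 by edgeR with Benjamini-Hochberg adjustment). Differences within Sets 1, 2 and 3 were -1.05, -0.98 and -1.15. The ratio of MKI67 to TOP2A in TPM was 1.91, 1.91 and 2.14 in siControl and 1.45, 1.58 and 1.67 in siNONO, also without overlap. Neither TOP2A nor MKI67 shares exonic bases with another gene.

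Per transcript length, MKI67, NCAPD2 and SMC4 were the most abundant of the 10 in siControl, at 119 ± 3.06, 112 ± 9.05 and 99.0 ± 18.4 TPM (SD, n = 3), and their ranges over libraries overlapped. TOP2A and NCAPG came next at 60.1 ± 2.71 and 56.4 ± 2.96 TPM, also overlapping. NCAPH, NCAPD3 and NCAPH2 followed at 42.7 ± 1.75, 42.4 ± 1.56 and 40.3 ± 2.56 TPM, where each range overlapped the next. NCAPG2 at 29.7 ± 2.05 TPM and SMC2 at 14.1 ± 1.04 TPM each lay below their neighbour without overlap. In siNONO the order was NCAPD2 (64.9 ± 2.62 TPM), MKI67 (54.5 ± 2.89 TPM), SMC4 (53.0 ± 7.64 TPM), TOP2A (34.8 ± 2.07 TPM), NCAPH2 (34.4 ± 5.54 TPM), NCAPG (28.4 ± 2.12 TPM), NCAPH (27.9 ± 0.751 TPM), NCAPG2 (26.5 ± 0.635 TPM), NCAPD3 (25.8 ± 2.16 TPM) and SMC2 (8.94 ± 0.340 TPM). From TOP2A to NCAPD3 each range overlapped the next, while NCAPD2 lay above MKI67, SMC4 above TOP2A and SMC2 below NCAPD3 without overlap. The partner arms were listed at unequal levels, with 4.93 to 8.64 times as much SMC4 as SMC2 over the 6 libraries.

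**Figure D3:**
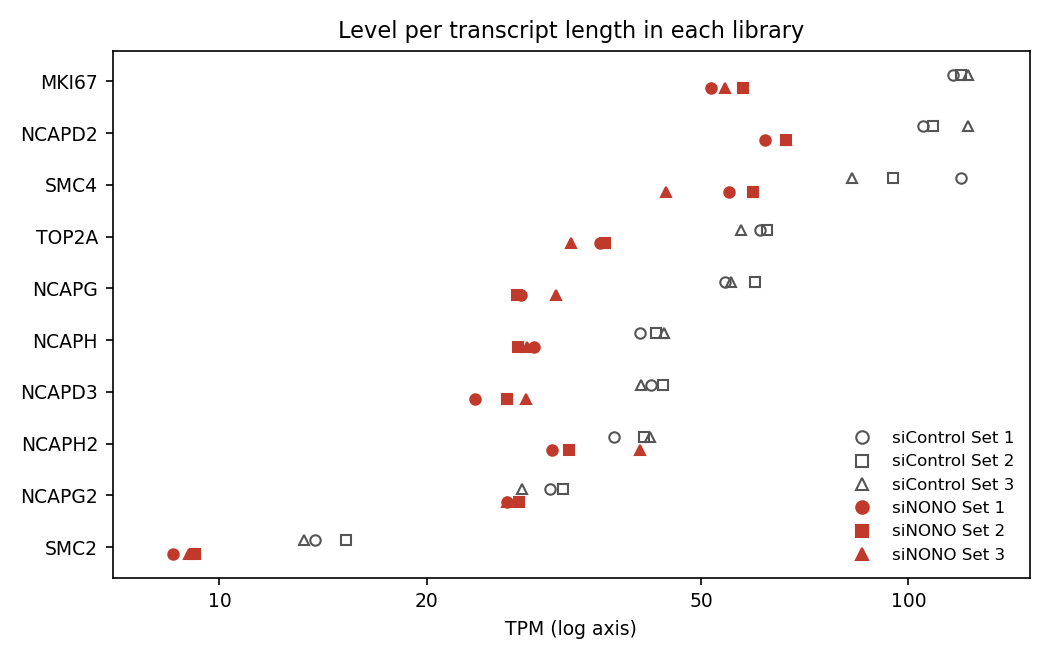
TPM of the 10 genes in each library on a log axis, with open grey symbols for siControl and filled red symbols for siNONO and a shape for each Set. Genes run from the highest siControl mean (MKI67, 119 TPM) to the lowest (SMC2, 14.1 TPM), and red and grey come nearest in NCAPG2 and NCAPH2.

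Among the regulators of condensin, 7 of 11 were lower and 0 higher, with a median log2 fold change of -0.18. This and the lists that follow stand beside 23.4% lower, 23.2% higher and a median of -0.0048 over all genes tested. The number of these regulators called lower was 6 or 7 over the 15 alternatives. AURKB, the mitotic kinase of the chromosomal passenger complex, fell from 57.3 ± 4.52 to 31.2 ± 3.50 CPM (SD, n = 3), a log2 fold change of -0.88 (standard error 0.0470). KIF4A, a chromosome-bound kinesin that works with condensin I, fell by 0.69 (standard error 0.0452), and PLK1, a mitotic kinase that phosphorylates condensin II, by 0.46 (standard error 0.0357), each on the log2 scale. CCNB1 and CDK1, which form the mitotic kinase that activates condensin, were also lower, at -0.44 and -0.33. MCPH1, which restrains condensin II before mitosis, was not called, at 0.05.

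The other SMC proteins and their partners gave 6 lower, 1 higher and 1 not called of 8, with a median of -0.19. The cohesin subunits RAD21 (kleisin), SMC3 and SMC1A had log2 fold changes of -0.52, -0.42 and -0.30, with standard errors of 0.0298, 0.0354 and 0.0321. SMC6, an arm of the SMC5-SMC6 repair complex, was at -0.19. STAG2, the cohesin subunit called higher, was at 0.16 (standard error 0.0366), and it was not called in 5 of 15 alternatives. The fit without the replicate block called 3 of the 8 lower. STAG1 was the gene not called, at 0.01.

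The 5 other topoisomerases were split. TOP1MT (the mitochondrial enzyme), TOP3B and TOP1 rose, with log2 fold changes of 0.46, 0.25 and 0.19, and TOP3A and TOP2B fell, with -0.25 and -0.13. TOP1MT went from 41.0 ± 2.26 to 56.4 ± 0.528 CPM (SD, n = 3). Of these 5, 1 rather than 2 was called lower without the replicate block and without the Set 2 library of either group. With limma on log2(TPM + 1) or log2(TPM + 0.1), 2 rather than 3 were called higher.

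Of 8 genes of the chromosome surface and partners of Ki-67, 3 were lower and 4 higher. CDCA2 (Repo-Man), which carries a phosphatase to chromatin, fell from 58.8 ± 2.05 to 31.9 ± 0.392 CPM (SD, n = 3), a log2 fold change of -0.88 (standard error 0.0444). PPP1CC, a catalytic subunit of that phosphatase, and NCL, nucleolin, were also lower, at -0.26 and -0.20. DDX21, a nucleolar helicase, was the highest at 0.20 (standard error 0.0290). All 4 higher calls were lost with limma on log2(TPM + 1) or log2(TPM + 0.1). NPM1, a nucleolar chaperone, was not called, at 0.02.

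Of 7 proliferation markers 6 were lower and 1 higher, and this count was the same in all 15 alternatives. CCNA2, the cyclin of S and G2 phase, fell from 111 ± 4.48 to 54.9 ± 3.66 CPM (SD, n = 3), a log2 fold change of -1.02 (standard error 0.0367). MCM6, part of the replicative helicase, and UBE2C, a ubiquitin-conjugating enzyme that works with the anaphase-promoting complex, followed at -0.61 and -0.60. CCNE1, the G1/S cyclin, rose from 28.2 ± 1.11 to 39.7 ± 1.21 CPM (SD, n = 3), by 0.49 (standard error 0.0497). The part of these markers in the values of the 10 genes was not tested.

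**Figure D4:**
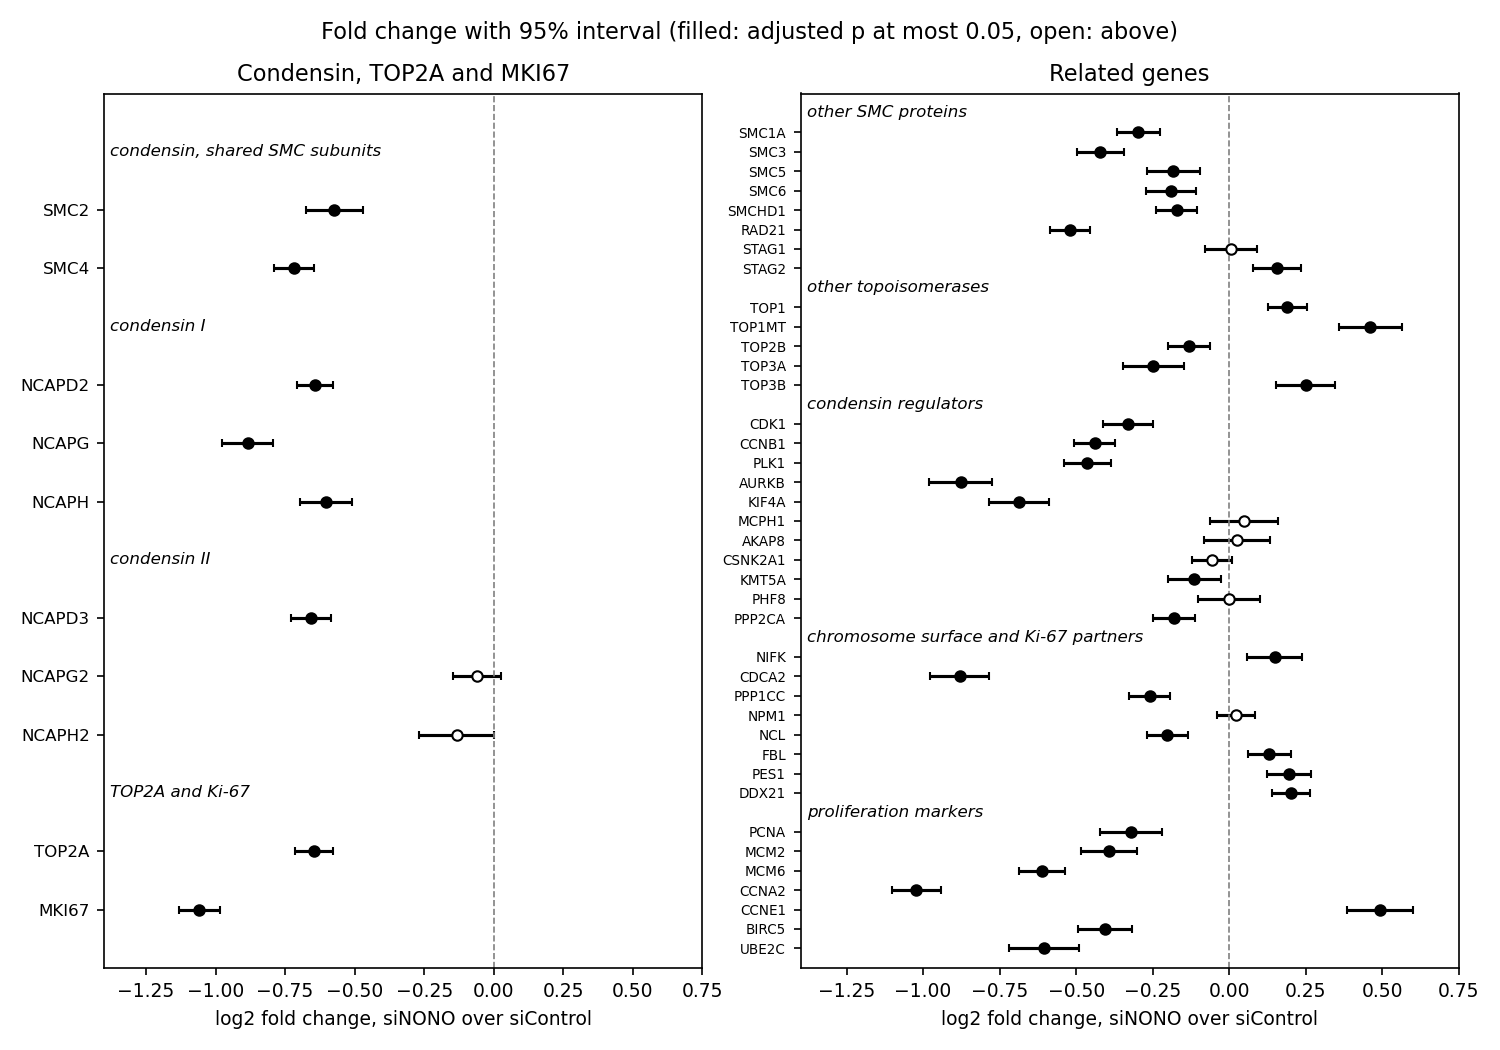
Log2 fold change, siNONO over siControl, with 95% confidence intervals from edgeR's quasi-likelihood fit, for the 10 genes (left) and the related lists (right); filled points have an adjusted p of at most 0.05. All filled points on the left lie below 0, from SMC2 at -0.57 to MKI67 at -1.06, and the right panel holds filled points on both sides.

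The genes whose pattern over the 6 libraries came nearest were ranked by the root mean square difference in centred log2 CPM, among 13340 genes. These share libraries and scaling, so the ranking is a description. Nearest to TOP2A were DLGAP5, STMN1 and BUB1B, at differences of 0.0344, 0.0363 and 0.0374. MKI67 had PRR11, KIF20A and KIF3B at 0.0424, 0.0463 and 0.0505. NCAPH lay nearest to MCM4, KIF22 and MCM6 at 0.0156, 0.0219 and 0.0236, whereas its counterpart NCAPH2 had PPM1F-AS1, LAGE3 and EGFL8 at 0.0442, 0.0455 and 0.0516.

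In the annotation of GRCh37, SMC2 (ENSG00000136824.19_5) lies on the plus strand at chr9:106856541-106903700, SMC4 (ENSG00000113810.16_6) on plus at chr3:160117062-160152742, NCAPD2 (ENSG00000010292.13_5) on plus at chr12:6602522-6641121, NCAPG (ENSG00000109805.10_4) on plus at chr4:17812602-17846488 and NCAPH (ENSG00000121152.10_6) on plus at chr2:97001504-97042829. NCAPD3 (ENSG00000151503.13_6) lies on minus at chr11:134020008-134095398, NCAPG2 (ENSG00000146918.20_6) on minus at chr7:158423861-158497495, NCAPH2 (ENSG00000025770.19_6) on plus at chr22:50946653-50963209, TOP2A (ENSG00000131747.15_6) on minus at chr17:38544777-38574148 and MKI67 (ENSG00000148773.14_6) on minus at chr10:129894923-129924687. Identifiers are those of the deposited files. The 10 genes thus sit on 10 different chromosomes.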

How the data were processed

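RNA-seq of 3 siControl and 3 siNONO libraries of HCT116 cells was analysed. Reads had been trimmed (sickle), aligned with STAR to GENCODE 34 transcripts on GRCh37 and quantified by the authors with RSEM (version 1.3.1). The deposited estimated counts carry no normalization. The deposited TPM values are corrected by RSEM for transcript length and depth, and the deposited lengths are means weighted by isoform. RSEM divides reads shared between genes, so counts were rounded to whole numbers.

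Counts were tested with edgeR (version 4.0.16, quasi-likelihood F-test in the edgeR 3 form), TMM scaling, filterByExpr and a block for Set, and p-values were adjusted by Benjamini-Hochberg over 17000 genes. Standard errors came from the fold change and its F. Gene symbols were matched for 62211 of 62492 identifiers, with GENCODE 44 mapped to GRCh37. Set numbers come from the labels and were used to pair the libraries. Over 12114 genes, deviations from the group means correlated by 0.187, 0.168 and 0.351 within Sets 1, 2 and 3. Between siControl Set 2 and siNONO Set 1 the value was 0.103, and between siControl Set 1 and siNONO Set 2 it was 0.124. Pairs of a Set 3 library with another Set ran from -0.241 to -0.199. These values set Set 3 apart but separate Sets 1 and 2 little. Replicates differed beyond sampling noise in every pair. The series' design text calls them biological replicates and gives no further source. The biological coefficient of variation was 3.51%.

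The 10 genes and all lists were chosen with earlier results of these data known. Within each related list, up to 4 called genes with the largest fold change were named, and any count of 3 or fewer by name. CDK1, MCPH1 and the overlapping genes were named outside this rule. A further gene of the condensin regulators is not reported here. The 15 alternatives comprised other scalings, filters and tests, DESeq2 (version 1.42.0), limma (version 3.58.1), no replicate block and each library left out. With the block for Set, both fits that leave out a library of the same Set rest on the same other Sets.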

Additional observations from a re-analysis of the deposited data

How the results depend on the processing

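All 8 lower members kept their call and direction under the 15 alternatives, with log2 fold changes from -1.13 to -1.01 for MKI67 and from -0.65 to -0.54 for SMC2, and NONO lay between -2.42 and -2.22. The number of genes changed moved from 7924 to 5227 with DESeq2, 5257 with limma on log2(TPM + 1) and 5250 with limma on log2(TPM + 0.1). Of the changed genes 49.7% were higher by edgeR, against 31.3% and 31.2% in the limma fits. The cause was not tested. With each library left out in turn, the number of genes changed ran from 6497 to 7653, the number of condensin II subunits lower from 1 to 2, and the NCAPD2 to NCAPD3 difference in log2 TPM ratio from -0.11 to 0.026. The highest, 0.026, came without siControl Set 3, and the same difference was 0.013 with CPM in place of TPM, both against -0.06. The NCAPH to NCAPH2 difference was -0.25 without siNONO Set 3, against -0.38. The unpaired exact permutation test of the ratios could not pass 0.05 with 3 against 3 libraries. Without the replicate block 6164 genes were called, and no call of the 10 genes changed. Depth limits these genes little, since each had at least 32.2 CPM in every library.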

Other observations

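Genes that overlap the condensin subunits on the opposite strand, chosen for their position, moved in both directions. TRIM59, which overlaps SMC4, had a log2 fold change of -0.65 (adjusted p = 5.43e-07 by edgeR with Benjamini-Hochberg adjustment), and IFT80, also next to SMC4, had -0.35. LCORL, which overlaps NCAPG, stood at 31.1, 29.1 and 30.0 CPM in siControl and at 26.8, 26.1 and 20.6 CPM in siNONO, a log2 fold change of -0.29. MRPL51, a mitochondrial ribosomal protein gene that overlaps NCAPD2, rose by 0.47, and VPS26B, a retromer gene that overlaps NCAPD3, rose by 0.34, while NCAPD2 and NCAPD3 were lower. No test compared these genes with their neighbours.

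The transcript length that RSEM assigned to SMC4 ran from 2831 to 3483 bases in siControl and from 3234 to 3696 bases in siNONO. In Set 1 of siControl SMC4 was listed at 119.03 TPM, against 95.05 and 82.83 TPM in Sets 2 and 3, while its CPM of 219, 221 and 191 varied less.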
